A study of Rattus norvegicus with 12 samples.

Results

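The comparison of cultures given lipopolysaccharide (LPS) with cultures given interleukin-1β (IL-1β) rests on 8 of the 12 libraries of the study, 4 in each group, and its members are the 17330 of 30045 gene rows that passed a filter on low counts. The cells were theca-interstitial cells from wild type female Sprague Dawley rats at postnatal day 30, cultured on human fibronectin in McCoys 5A medium for 48 h with rat IL-1β, with LPS or with vehicle. LPS was given at 1 µg/ml, and a separate dose of IL-1β could not be read from the labels. Neither the purity of the isolated cells nor whether replicates came from separate animals or isolations is stated, so p-values measure the spread between these samples, which may be technical. The 4 vehicle libraries, called control, serve here only to place the levels of both stimulated groups.

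Theca-interstitial cells lie around the ovarian follicle and in the stroma and make androgens from cholesterol when luteinizing hormone binds its receptor. LPS, a part of the wall of Gram-negative bacteria, is sensed by TLR4 with its partners MD-2 and CD14, while IL-1β binds the receptor IL1R1. Both receptors pass their signal through the adaptor MyD88, IRAK kinases and TRAF6 to the transcription factor NF-kB. TLR4, unlike IL1R1, also uses the adaptor TRIF, which leads to interferon regulatory factors and type I interferon.

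Counts summed to between 23193408 and 26836323 per IL-1β library and between 25643226 and 28698783 per LPS library. The first component of the 8 libraries held 37.9% of the variance and separated the groups, with IL-1β libraries from -19.0 to -14.4 and LPS libraries at 9.62, 12.5, 24.0 and 20.8. LPS replicates 3 and 4 thus lay further from the IL-1β libraries than LPS replicates 1 and 2. Direct comparison by edgeR's quasi-likelihood test called 1960 genes higher with LPS (11.3% of those tested) and 1831 lower (10.6%) at a Benjamini-Hochberg adjusted p under 0.05. Without LPS replicates 3 and 4, an alternative chosen after seeing the data, 960 were called higher and 1019 lower. That choice keeps only the nearer LPS libraries, replicates 1 and 2, so fewer calls are built into it. Without LPS replicates 1 and 2, likewise chosen after seeing the data and with equally few libraries, 2162 were called higher and 2092 lower. For a single gene, a call lost without replicates 3 and 4 cannot be told apart from the effect of having fewer libraries. The median absolute log2 fold change of the called genes was 0.22, and 45 called genes were at least 2-fold higher and 94 at least 2-fold lower. In 1918 genes (11.1%) every LPS library lay above every IL-1β library, and in 1830 (10.6%) every one lay below.

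**Figure D1:**
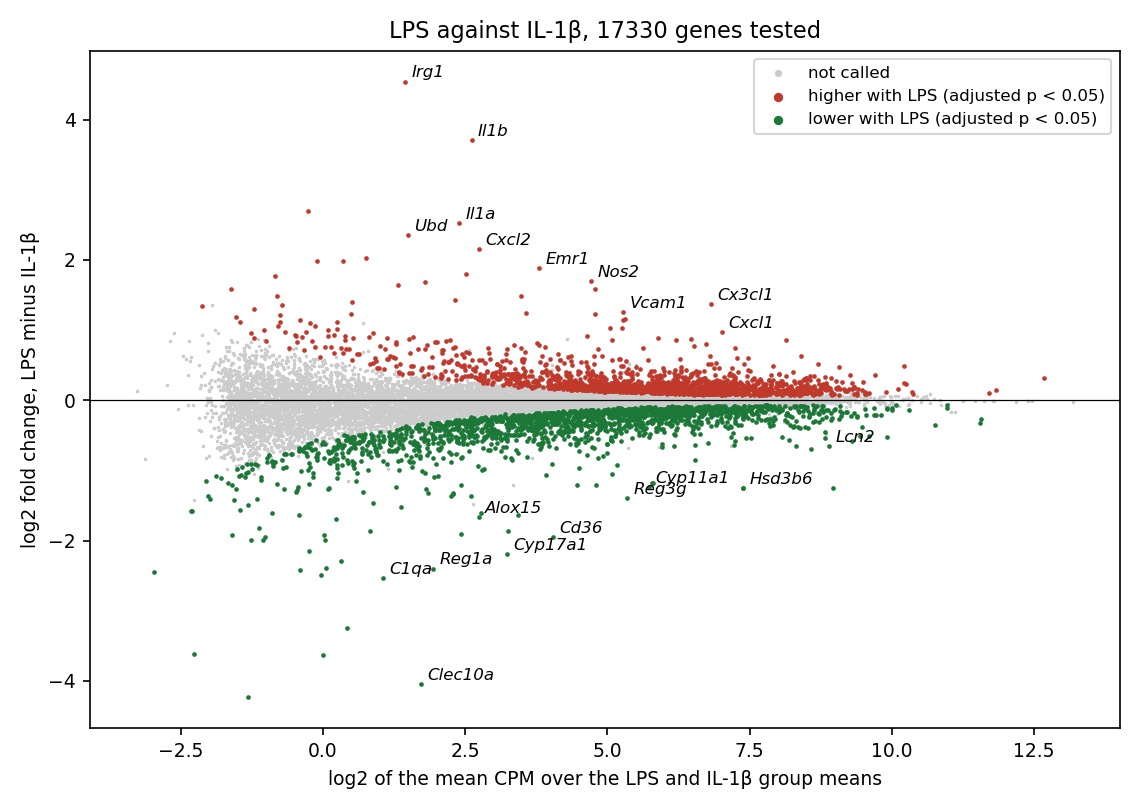
Log2 fold change between LPS and IL-1β (vertical axis, positive where LPS was higher) against the log2 of the mean CPM over both group means (horizontal axis) for each of the 17330 genes tested; red points were called higher, green points lower and grey points were not called at an adjusted p of 0.05. Irg1 (4.54) and Il1b (3.71) stand at the top and Clec10a (-4.05) near the bottom, while most called genes lie close to the zero line.

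Levels are given as CPM, counts relative to the scaled library total, which compare libraries but not genes of different length. After a log2 fold change, which is LPS minus IL-1β unless another pair is named, ± stands for the standard error of the fit. After a mean CPM it stands for the standard deviation. Where a list of genes is described, the count of members called is to be read against 11.3% higher and 10.6% lower over all genes tested, and the median log2 fold change against 0.00 over all genes.

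The theca label was set against its genes. Star, the carrier of cholesterol into mitochondria, stood at 318 to 425 CPM and Nr5a1, the main steroidogenic transcription factor, at 75.8 to 89.6 CPM in the 8 libraries. Insl3, which codes for a peptide hormone of the theca, was barely detected at 0.329 to 0.731 CPM, with 50 counts over the 4 IL-1β libraries and 48 over the 4 LPS libraries. Markers of other cells were present in both groups. Summed levels were 3463 to 3836 CPM with IL-1β and 3876 to 4336 CPM with LPS for 16 smooth muscle and pericyte genes. They were 2009 to 2363 and 1758 to 2008 CPM for 15 granulosa genes, 630 to 689 and 474 to 603 CPM for 17 endothelial genes, and 179 to 191 and 156 to 170 CPM for 26 macrophage genes. The 10 neutrophil genes summed to 0.598 to 1.73 CPM with IL-1β and 0.700 to 1.10 CPM with LPS, and 0 of them passed the filter. A sum can rest on a few abundant genes that other cells may share, so it does not give the share of a cell type. Of the granulosa genes, Cyp19a1 had 96 counts over all 12 libraries. Nr5a2, also listed as a theca regulator, had 18059 (both named after their values were seen). In these bulk samples fewer cells of a type and less RNA per cell cannot be told apart.

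Tlr4, the LPS receptor gene, stood at 8.83, 8.75, 9.33 and 8.81 CPM with IL-1β and at 10.8, 10.9, 12.7 and 10.6 CPM with LPS, a difference of 0.33 ± 0.08 (adjusted p = 0.00194). All LPS libraries were above all IL-1β libraries, and both groups were below the control libraries, at 14.4 to 16.7 CPM. The partners of TLR4 overlapped between the groups: Cd14 at 0.05 ± 0.05 (adjusted p = 0.489), Ly96, the gene of MD-2, at 0.05 ± 0.06 (0.600) and Lbp, which hands LPS to CD14, at -0.11 ± 0.11 (0.544). Tlr2, the receptor for bacterial lipopeptides, had the largest difference of the 14 tested genes of LPS sensing. It stood at 18.1, 16.5, 17.1 and 17.6 CPM with IL-1β and at 31.3, 30.7, 35.7 and 33.4 CPM with LPS (0.92 ± 0.06, adjusted p = 3.35e-11). In all, 5 of the 14 were called higher and 0 lower, with a median of 0.06. Those were Tlr2, Tlr4, Tlr3 (0.15 ± 0.04), Tlr6 (0.33 ± 0.09) and Tlr7 (0.66 ± 0.18), the last named after its values were seen, and without LPS replicates 3 and 4 only 2 of the 5 were called. The number lower was 1 in some alternatives, among them a stricter filter, the replicate block and without IL-1β replicate 3. Myd88, the shared adaptor gene, also named after its values were seen, was not called (-0.12, adjusted p = 0.0611).

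On the side of IL-1, the receptor gene Il1r1 stood at 193, 193, 198 and 198 CPM with IL-1β and at 210.0, 214, 216 and 232 CPM with LPS (0.16 ± 0.03, adjusted p = 0.00049). The LPS libraries lay in or just under the control range of 215 to 233 CPM, and the IL-1β libraries further below it. The decoy receptor gene Il1r2 was low and overlapped (-0.14 ± 0.24, adjusted p = 0.745). Of 17 genes of the IRAK and TRAF node, 5 were called higher and 0 lower (median 0.06), a count of 3 without IL-1β replicate 4 or without LPS replicate 4. Irak2, a kinase that prolongs the signal, had the largest difference among them, at 4.65, 4.52, 3.84 and 5.17 CPM with IL-1β and 6.84, 7.73, 8.11 and 6.37 CPM with LPS (0.68 ± 0.11, adjusted p = 2.59e-05). Irak3, the inhibitory member, was above control in both groups and overlapped between them (0.12 ± 0.07, adjusted p = 0.228).

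The ligands of the IL-1 receptor themselves were among the genes with the largest differences. Il1b, the gene of IL-1β, stood at 1.23, 1.02, 0.732 and 0.470 CPM with IL-1β and at 11.5, 10.9, 11.97 and 11.2 CPM with LPS, against 0.664 to 1.14 CPM in control. The LPS libraries were all far above the other 8, while the IL-1β libraries spread over the control range. The difference was 13.1-fold (3.71 ± 0.15, adjusted p = 2.87e-16). Il1a, the gene of the related ligand IL-1α, stood at 1.81, 1.18, 1.57 and 1.62 CPM with IL-1β and at 7.90, 7.94, 10.9 and 9.03 CPM with LPS (2.52 ± 0.14, adjusted p = 1.35e-13). Il1rn, the gene of the receptor antagonist, stood at 3.46, 3.51, 4.32 and 3.33 CPM with IL-1β and at 4.72, 6.16, 7.48 and 6.19 CPM with LPS. It was higher with LPS (0.74 ± 0.14, adjusted p = 0.000477), where it lay near the control range of 4.64 to 6.87 CPM.

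In the IL-1 family as a whole, 7 of 15 tested genes were called higher and 4 lower, with a median of 0.12. Casp1, whose protease releases active IL-1β, was 0.34 ± 0.08 higher. The 4 lower members were Il1rl1 (-0.33 ± 0.05), which codes for the receptor of IL-33, and 3 genes named after their values were seen: Il33 (-0.64 ± 0.22), Il18 (-0.61 ± 0.21) and Sigirr (-0.86 ± 0.19), an inhibitory receptor gene. The latter 3 were at or below 2.19 CPM in all 8 libraries. The number lower was 2 in 6 alternatives, among them without IL-1β replicate 1, without IL-1β replicate 2 and without LPS replicate 4.

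NF-kB subunits, IkB proteins and feedback genes, some of which NF-kB itself induces in many cells, were higher with LPS in 20 of 26 tested and lower in 1 (median 0.29). The median against control was 0.96 with LPS and 0.60 with IL-1β, from fits that share the control libraries. Tnfaip3, the gene of the deubiquitinase A20 that ends NF-kB signalling, stood at 77.2, 79.1, 78.0 and 76.6 CPM with IL-1β and at 127, 137, 141 and 135 CPM with LPS (0.80 ± 0.04, adjusted p = 7.34e-14). Nfkbia, the gene of the inhibitor IkBα, stood at 94.2, 102, 99.1 and 99.2 CPM with IL-1β and at 140.1, 136, 132 and 134 CPM with LPS (0.46 ± 0.04). Both were above control in all 8 libraries and higher again in every LPS library. Birc3, a ubiquitin ligase gene of the TNF receptor complex, was 0.58 ± 0.04 higher and Tnfaip2 0.60 ± 0.04 higher.

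Icam1, a leukocyte adhesion molecule, showed another order. Its IL-1β libraries, at 111 to 117 CPM, lay in or just above the control range of 96.1 to 114 CPM, while the LPS libraries stood at 186, 178, 202 and 192 CPM (0.75 ± 0.05, adjusted p = 8.26e-08). Sod2, the mitochondrial superoxide dismutase, was 0.23 ± 0.03 higher, at 406 to 412 CPM with IL-1β and 456 to 495 CPM with LPS, and Bcl3, a nuclear IkB protein named after its values were seen, stood at 35.7 to 37.7 CPM with IL-1β and 35.3 to 39.0 CPM with LPS (0.00 ± 0.05, adjusted p = 0.999). The member called lower was Bcl2a1 (-0.37 ± 0.11), also named after its values were seen, and that call was lost without IL-1β replicate 3 or without LPS replicate 1.

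Chemokine genes differed in both directions. Among those that attract neutrophils, Cxcl2 stood at 3.30, 1.69, 2.41 and 2.39 CPM with IL-1β and at 11.1, 9.13, 12.7 and 11.1 CPM with LPS, against 0.159 to 0.439 CPM in control. Both stimulated groups were above control and did not overlap each other (2.15 ± 0.14, adjusted p = 2.57e-10). Cxcl1 stood at 79.3, 88.3, 94.6 and 89.0 CPM with IL-1β and at 165, 164, 185 and 173 CPM with LPS (0.97 ± 0.08, adjusted p = 7.62e-06). Cxcl3 was likewise higher in every LPS library (1.04 ± 0.14). Cxcl6, named after its values were seen, overlapped at 28.6 to 33.2 CPM and 32.4 to 41.9 CPM and was not called (0.24 ± 0.09, adjusted p = 0.0637). Pf4, the gene of platelet factor 4, was counted in the same list without being taken as a neutrophil attractant, and was lower (-0.50 ± 0.10). In that list 3 of 5 tested were thus higher and 1 lower.

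Several chemokines that attract T cells and monocytes through CXCR3 or CX3CR1 were below control with IL-1β. Cxcl10 stood at 29.1, 21.8, 19.4 and 28.04 CPM with IL-1β and at 44.9, 54.0, 65.8 and 53.9 CPM with LPS, while control lay at 52.4 to 60.6 CPM. The IL-1β libraries were thus the low group, and LPS libraries lay around the control level (1.15 ± 0.15, adjusted p = 0.000444). Cx3cl1, the gene of fractalkine, stood at 57.3, 66.7, 59.3 and 67.6 CPM with IL-1β, at 100.3 to 115 CPM in control and at 155, 174, 149 and 171 CPM with LPS (1.37 ± 0.07, adjusted p = 8.55e-08). It was below control in all IL-1β libraries and above it in all LPS libraries. Cxcl11 was 1.99 ± 0.25 higher at low level, at 0.219 to 0.641 CPM with IL-1β, 1.40 to 1.56 CPM with LPS and 0.757 to 0.927 CPM in control. Cxcl9, named after its values were seen, was at 0.299 to 0.381 CPM with IL-1β, 0.805 to 0.945 CPM with LPS and 0.732 to 0.920 CPM in control (1.35 ± 0.25). Cxcl16 was 0.60 ± 0.04 higher. Cxcl12, which retains stem cells and lymphocytes, was lower, at 678 to 771 CPM with IL-1β and 584 to 629 CPM with LPS (-0.24 ± 0.03, adjusted p = 1.08e-05). In this list 5 of 8 were higher and 1 lower, or 3 higher with a stricter filter, which drops low genes.

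Of 15 CC chemokine genes 8 were higher and 3 lower (median 0.85). Ccl3 stood at 2.30, 2.28, 2.74 and 2.82 CPM with IL-1β and at 8.08, 7.45, 11.3 and 8.68 CPM with LPS (1.80 ± 0.13, adjusted p = 3.71e-11), and Ccl4 was 2.03 ± 0.22 higher. Ccl2, the main attractant of monocytes, stood at 195, 189, 219 and 197 CPM with IL-1β and at 319, 342, 424 and 368 CPM with LPS (0.86 ± 0.12, adjusted p = 0.000951). Ccl20, an attractant of CCR6-bearing cells, was 0.85 ± 0.13 higher and Ccl19 0.90 ± 0.14 higher. The 3 lower genes were higher than control with IL-1β. Ccl6 stood at 7.80, 8.29, 9.03 and 8.68 CPM with IL-1β and at 2.597, 2.31, 2.14 and 1.96 CPM with LPS, against 0.659 to 1.14 CPM in control (-1.91 ± 0.12, adjusted p = 2.81e-12). Ccl24, which attracts eosinophils, had 129 counts over the IL-1β libraries and 26 over the LPS libraries (-2.41 ± 0.29). Ccl12, named after its values were seen, was at 10.3 to 12.1 CPM and 6.79 to 7.37 CPM (-0.67 ± 0.09).

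The promoters of genes at both ends of the comparison were searched, in the RefSeq table of rat build GRCr8, from 250 bases before to 50 after the gene start. Of the 20 called genes with the highest fold changes among those of at least 2 CPM, 16 had an entry, and so did 16 of the 20 with the lowest. The motifs, on both strands, were the NF-kB consensus, the interferon-stimulated response element as TTTCNNTTTC and the STAT motif as TTCNNNGAA. The NF-kB consensus stood in 8 of the 16 higher genes and 2 of the 16 lower genes, and in 4.18% of all 33469 promoters. The interferon element stood in 6 and 0, against 3.92%, and the STAT motif in 1 and 4, against 8.87%. These are matches of letters in a short window, and no binding was measured. Printed below, with the matches in capitals, are Cxcl2 and Cxcl10 for the chemokines, Gbp5 for the interferon genes and Reg3b for the genes that were lower with LPS. Cxcl2 (chr14:17467206-17467505, minus strand) holds overlapping NF-kB matches from position -74 to -64 from the gene start. Cxcl10 (chr14:15988816-15989115, plus strand) holds an interferon element at -243 and an NF-kB match at -187. Gbp5 (chr2:233910749-233911048, plus strand) holds NF-kB matches at -94, -28 and 33 and an interferon element at -56. Reg3b (chr4:112419526-112419825, plus strand) holds a STAT motif at -129.
Cxcl2: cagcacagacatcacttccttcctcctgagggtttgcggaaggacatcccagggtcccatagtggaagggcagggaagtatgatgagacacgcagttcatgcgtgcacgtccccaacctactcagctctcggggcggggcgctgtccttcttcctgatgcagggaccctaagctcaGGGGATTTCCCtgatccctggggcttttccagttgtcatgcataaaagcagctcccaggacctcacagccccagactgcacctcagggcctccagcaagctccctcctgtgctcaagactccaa
Cxcl10: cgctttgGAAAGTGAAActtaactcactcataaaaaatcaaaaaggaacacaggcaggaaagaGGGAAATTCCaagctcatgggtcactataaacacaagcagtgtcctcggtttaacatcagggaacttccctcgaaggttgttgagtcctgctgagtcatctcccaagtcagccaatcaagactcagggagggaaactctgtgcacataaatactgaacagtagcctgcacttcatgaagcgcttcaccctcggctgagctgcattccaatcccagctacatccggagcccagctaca
Gbp5: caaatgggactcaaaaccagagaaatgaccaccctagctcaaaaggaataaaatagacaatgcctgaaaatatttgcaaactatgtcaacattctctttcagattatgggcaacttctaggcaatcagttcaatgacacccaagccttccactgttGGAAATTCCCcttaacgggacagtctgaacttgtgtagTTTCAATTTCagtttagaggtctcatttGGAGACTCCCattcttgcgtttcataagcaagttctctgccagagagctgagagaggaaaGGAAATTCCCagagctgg
Reg3b: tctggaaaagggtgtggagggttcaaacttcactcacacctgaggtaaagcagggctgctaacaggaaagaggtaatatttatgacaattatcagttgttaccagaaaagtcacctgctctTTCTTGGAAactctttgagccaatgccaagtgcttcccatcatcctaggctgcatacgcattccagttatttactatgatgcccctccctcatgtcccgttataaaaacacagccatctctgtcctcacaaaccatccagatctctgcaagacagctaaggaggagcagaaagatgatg

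Cytokine genes outside the IL-1 family were higher in 10 of 27 and lower in 2 (median 0.26). The number higher fell to 6 with DESeq2 or with a stricter filter and to 4 without LPS replicates 3 and 4. Csf1, the growth factor of macrophages, stood at 66.0, 65.0, 66.8 and 72.3 CPM with IL-1β and at 104, 115, 125 and 118 CPM with LPS (0.77 ± 0.06, adjusted p = 2.1e-07). Control lay between them at 79.5 to 92.0 CPM. Il10, an anti-inflammatory cytokine, had 25 counts over the IL-1β libraries and 95 over the LPS libraries (1.77 ± 0.29), and Il7 was 0.64 ± 0.11 higher. Il6 overlapped at 2.095 to 3.11 and 2.34 to 3.59 CPM (0.26 ± 0.17, adjusted p = 0.286). Tnf was at 0.296 to 0.727 CPM with IL-1β and 0.857 to 1.02 CPM with LPS, within or near the control range of 0.429 to 0.920 CPM (0.92 ± 0.27, adjusted p = 0.0140). That call was lost without IL-1β replicate 2 (0.75) and without LPS replicates 3 and 4 (0.92). Tgfb1 was lower (-0.33 ± 0.06), while Tgfb2, named after its values were seen, was higher (0.45 ± 0.09) and Tgfb3 was not called (-0.09). The number lower was 1 with DESeq2, in a fit on the 8 libraries alone, without IL-1β replicate 3 or 4 and without LPS replicate 3.

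The highest fold change of all genes tested was that of Irg1, whose enzyme makes itaconate in activated macrophages. It stood at 0.230, 0.169, 0.183 and 0.299 CPM with IL-1β and at 4.68, 4.58, 5.85 and 5.74 CPM with LPS, against 0.488 to 0.937 CPM in control. Every IL-1β library was below every control library and every LPS library above (4.54 ± 0.22, adjusted p = 1.18e-14, 23.3-fold). Counts were 22 over the 4 IL-1β libraries and 573 over the 4 LPS libraries. Nos2, the inducible nitric oxide synthase, stood at 13.5, 13.4, 11.9 and 10.5 CPM with IL-1β and at 40.5, 36.8, 44.0 and 39.5 CPM with LPS. It was 3.25-fold higher with LPS (1.70 ± 0.07, adjusted p = 2.25e-15), and the unnamed locus LOC497963 had nearly the same counts, so reads may be shared between both rows. The arginine carrier gene Slc7a2 was 0.42 ± 0.06 higher, and Nos3, the endothelial synthase, lower (-0.63 ± 0.10). The other 10 of 14 genes in this list were not called. Nox1, a superoxide-making oxidase, was 1.43 ± 0.12 higher.

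**Figure D2:**
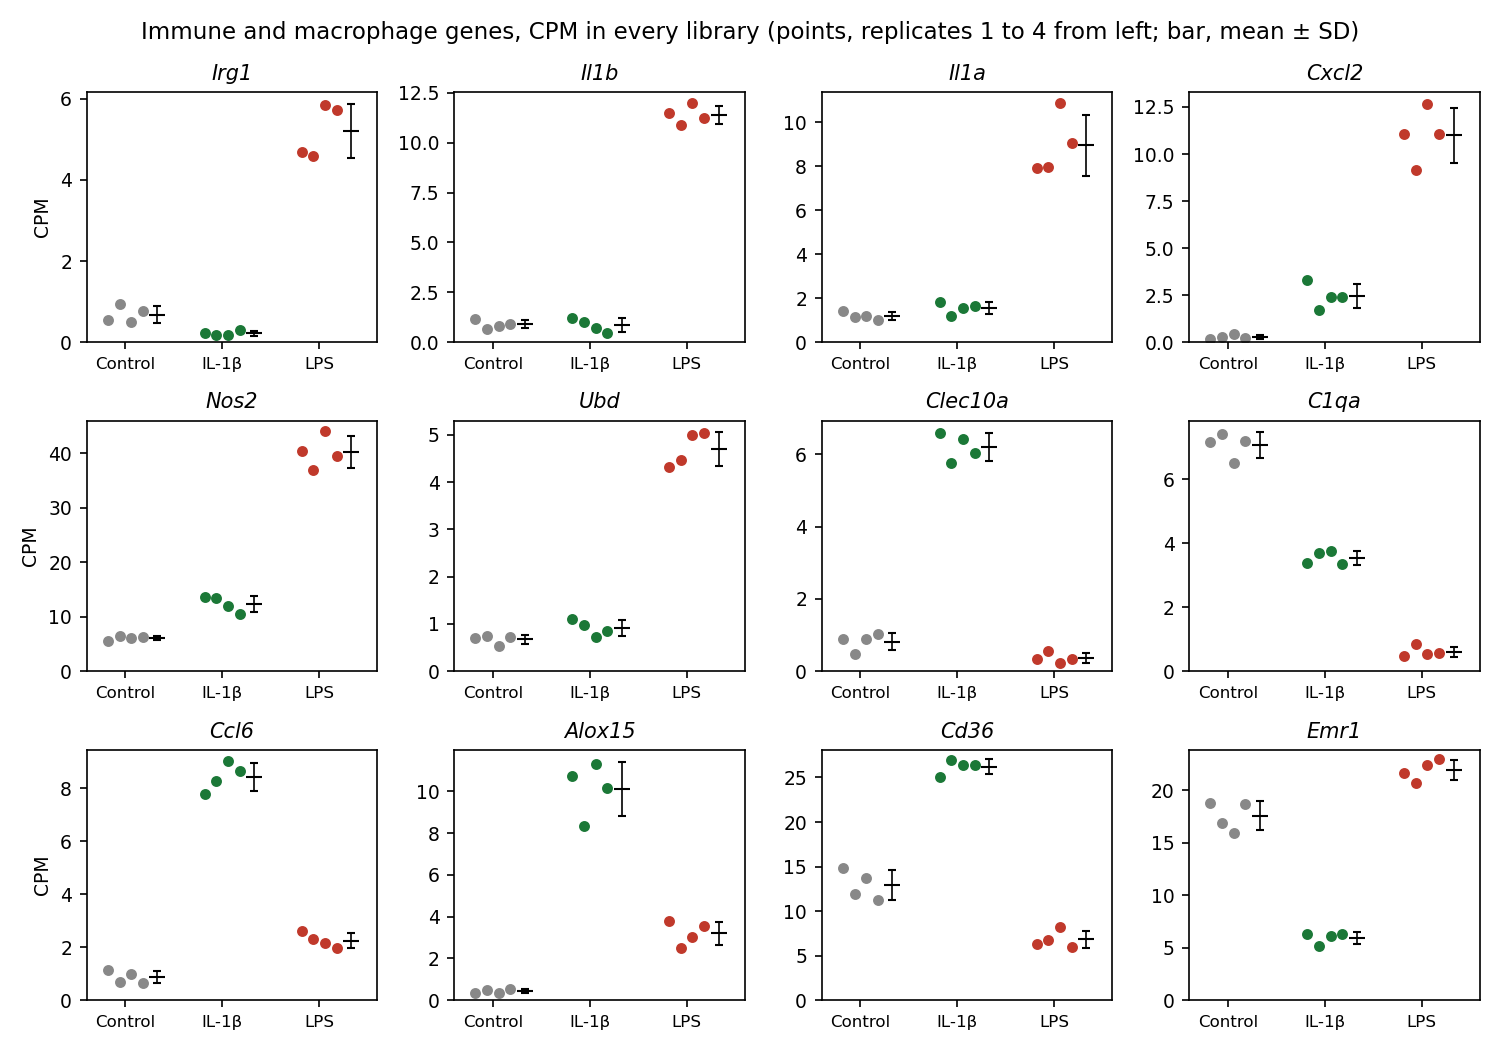
CPM in each control, IL-1β and LPS library (points, replicates 1 to 4 from left; bars, mean ± SD, n = 4) for 12 immune and macrophage genes, each panel on its own axis from 0. LPS is the high group for Irg1, Il1b, Il1a, Cxcl2, Nos2 and Ubd, IL-1β is the high group for Clec10a, Ccl6, Alox15 and Cd36, and C1qa is highest in control and lowest with LPS.

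Interferon-stimulated genes were higher with LPS than with IL-1β. Of 42 tested type I interferon-stimulated genes 25 were called higher and 2 lower (median 0.31). Against control their median was -0.08 with LPS and -0.46 with IL-1β. Mx1, an antiviral GTPase, stood at 77.0, 53.2, 51.5 and 68.1 CPM with IL-1β, at 105, 112, 138 and 102 CPM with LPS and at 124 to 136 CPM in control (0.87 ± 0.14, adjusted p = 0.00179). Irf7, the factor that amplifies type I interferon, stood at 107, 79.4, 82.4 and 88.1 CPM with IL-1β, at 114, 128, 150 and 119 CPM with LPS and at 155 to 169 CPM in control (0.51 ± 0.11, adjusted p = 0.0084). Neither gene's IL-1β and LPS libraries overlapped. The Irf7 call was lost without LPS replicates 3 and 4.

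Ifit3 had the largest difference in this list, and 1 library stood out. It stood at 22.8, 12.9, 12.2 and 18.04 CPM with IL-1β and at 31.3, 33.8, 59.3 and 30.5 CPM with LPS, where replicate 3 was the high one (1.23 ± 0.27, adjusted p = 0.0103). Ifit1 was barely detected and not called (0.53 ± 0.38, adjusted p = 0.349). The count of 25 fell to 14 in a fit on the 8 libraries alone, to 15 or 16 without IL-1β replicate 2, 3 or 4, and to 10 without LPS replicates 3 and 4. The median over the list was 0.22 in IL-1β replicate 1 and -0.09 to -0.01 in IL-1β replicates 2 to 4, and 0.20, 0.25, 0.43 and 0.22 in LPS replicates 1 to 4, each relative to the mean of the IL-1β group.

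Guanylate-binding proteins and other IRF1-type genes were higher in 17 of 21 and lower in 0 (median 0.36). Gbp5, a GTPase of host defence, stood at 24.5, 22.6, 23.6 and 25.8 CPM with IL-1β, at 49.6, 52.8, 58.6 and 52.8 CPM with LPS and at 23.4 to 26.6 CPM in control. IL-1β libraries thus lay in or just under the control range and LPS libraries were all above it (1.15 ± 0.05, adjusted p = 7.92e-15). Ubd, a ubiquitin-like modifier, stood at 1.11, 0.972, 0.732 and 0.855 CPM with IL-1β and at 4.32, 4.48, 4.99 and 5.04 CPM with LPS (2.35 ± 0.15, adjusted p = 5.05e-12). Gbp2 was 0.48 ± 0.04 higher and Psmb9, an immunoproteasome subunit gene, 0.41 ± 0.05 higher. MHC class I presentation genes, which share 4 members with that list, were higher in 15 of 19 and lower in 0 (median 0.26). B2m, the invariant light chain of class I molecules, stood at 1041, 981, 941 and 974 CPM with IL-1β and at 1264, 1387, 1436 and 1428 CPM with LPS, against 1192 to 1307 CPM in control (0.49 ± 0.04, adjusted p = 6.43e-08). RT1-A1, a class I heavy chain gene whose reads may be split with its close relatives, was 0.29 ± 0.04 higher.

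Macrophage markers were lower with LPS in 13 of 23 tested and higher in 1 (median -0.58). Clec10a, a lectin of alternatively activated macrophages, stood at 6.60, 5.75, 6.44 and 6.03 CPM with IL-1β and at 0.329, 0.560, 0.234 and 0.350 CPM with LPS, against 0.468 to 1.02 CPM in control. IL-1β was the high group, and the LPS libraries were in or under the control range (-4.05 ± 0.19, adjusted p = 7.92e-15, 16.5-fold). Cd163, a haemoglobin scavenger receptor gene named after its values were seen, had 77 counts over the IL-1β libraries and 4 over the LPS libraries. C1qa, which codes for a chain of the complement starter C1q, stood at 3.38, 3.68, 3.77 and 3.33 CPM with IL-1β, at 0.476, 0.840, 0.546 and 0.560 CPM with LPS and at 6.49 to 7.42 CPM in control (-2.53 ± 0.16, adjusted p = 5.18e-12). The genes of the other C1q chains had 246 and 28 counts (C1qc, -3.24 ± 0.24) and 186 and 16 counts (C1qb, -3.63 ± 0.31, named after its values were seen) over the IL-1β and LPS libraries.

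Emr1, the gene of the F4/80 antigen, stood at 6.30, 5.12, 6.07 and 6.33 CPM with IL-1β, at 21.6, 20.7, 22.4 and 23.0 CPM with LPS and at 16.0 to 18.8 CPM in control (1.88 ± 0.07, adjusted p = 2.87e-16). It was the lone macrophage marker called higher. Laptm5, a lysosomal protein gene of blood cells, was lower (-1.34 ± 0.11), as was Cd68 (-0.29 ± 0.08), whose call was lost without LPS replicate 2. Lower members named after their values were seen include Siglec1 (-0.97 ± 0.24), Mrc1 (-0.82 ± 0.07), the mannose receptor gene, Lyz2 (-0.76 ± 0.07), a lysozyme gene, and Csf1r (-0.58 ± 0.10), the receptor gene for CSF1. The other 9 tested members were not called, among them Cd14 (0.05 ± 0.05). Itgal, an integrin gene of leukocytes outside this list, was higher (1.64 ± 0.15), with LPS libraries at 3.15 to 4.30 CPM below the control range of 4.39 to 5.04 CPM. Summed over 26 genes, macrophage markers reached 253 to 265 CPM in control, 179 to 191 CPM with IL-1β and 156 to 170 CPM with LPS, and none of the 26 was at 0 in all 8 libraries. The part of this difference in the chemokine, Irg1 and Nos2 values was not tested.

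MHC class II presentation genes were lower in 3 of 9 and higher in 0 (median -0.58, or -0.26 without LPS replicates 1 and 2). RT1-DMb, which helps load peptides, stood at 1.54, 1.65, 1.39 and 2.01 CPM with IL-1β and at 0.439, 0.315, 0.429 and 0.455 CPM with LPS, while the IL-1β libraries lay around the control range of 1.51 to 1.78 CPM (-1.99 ± 0.21, adjusted p = 1.01e-07). RT1-DMa (-0.62 ± 0.16) and the protease gene Ctss (-0.58) were the other members called, and the former was lost without LPS replicates 3 and 4. RT1-Db1, at -0.69 ± 0.33, was not called (adjusted p = 0.137). The other tested members, named after their values were seen, were not called either. They were Cd74 (-0.12), RT1-Da (-0.37), RT1-Ba (-0.09), RT1-Bb (-0.58) and Ciita, which lay in the other direction (0.46). The summed level was 16.0 to 16.5 CPM with IL-1β and 9.80 to 12.2 CPM with LPS.

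Cd36, Alox15, Mmp12 and Stab1, in neither the macrophage nor the class II list, were among the 20 genes named for the lowest fold changes. Cd36, a scavenger receptor that takes up oxidized lipids, stood at 25.1, 27.0, 26.4 and 26.4 CPM with IL-1β, at 6.25, 6.79, 8.22 and 6.02 CPM with LPS and at 11.3 to 14.8 CPM in control. It was thus above control in every IL-1β library and below it in every LPS library (-1.95 ± 0.09, adjusted p = 7.34e-14). Alox15, a lipoxygenase, stood at 10.8, 8.33, 11.3 and 10.1 CPM with IL-1β and at 3.77, 2.52, 3.00 and 3.53 CPM with LPS, both above the 0.342 to 0.527 CPM of control (-1.66 ± 0.12, adjusted p = 3.59e-11). Mmp12, the macrophage elastase, was at 8.08 to 9.91 CPM with IL-1β and at 3.11 to 4.21 CPM with LPS, in the control range of 3.36 to 4.35 CPM or near it (-1.36 ± 0.11). Stab1, a scavenger receptor, was lower as well (-1.32 ± 0.11).

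Of 17 tested genes of antibacterial and acute-phase proteins, 11 were lower with LPS than with IL-1β and 0 higher (median -0.43, or -0.68 without LPS replicates 3 and 4). The median against control was 2.77 with LPS and 4.05 with IL-1β. Reg3g, an antibacterial lectin, stood at 67.5, 63.9, 52.0 and 53.6 CPM with IL-1β and at 22.3, 24.8, 20.1 and 22.7 CPM with LPS, against at most 0.254 CPM in control (-1.40 ± 0.09, adjusted p = 2.72e-07). Reg3b stood at 16.2, 16.0, 13.5 and 13.9 CPM with IL-1β and at 4.13, 4.20, 3.39 and 4.51 CPM with LPS (-1.87 ± 0.10, adjusted p = 6.23e-14). Reg1a was 5.28-fold lower (-2.40 ± 0.16). For each of the 3 Reg genes every LPS library lay below every IL-1β library and above every control library.

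Lcn2, which withholds iron carriers from bacteria, stood at 617, 575, 572 and 575 CPM with IL-1β and at 366, 359, 386 and 381 CPM with LPS (-0.65 ± 0.03, adjusted p = 1.78e-14). Serpina3n, a protease inhibitor gene, was lower by more (-1.33 ± 0.16), and so was Pzp (-1.24 ± 0.16), a protease-trapping protein related to alpha-2-macroglobulin. Pla2g2a, a secreted phospholipase, was lower by less and without overlap, at 513 to 550.0 CPM with IL-1β and 412 to 464 CPM with LPS (-0.28 ± 0.06, adjusted p = 0.0069). Complement genes were mixed, with 3 of 22 higher and 6 lower (median -0.09). The lower count was 3 without IL-1β replicate 4 and 10 without LPS replicates 1 and 2. C3, the central component, was higher with LPS, at 44.0, 47.4, 48.6 and 52.4 CPM with IL-1β and 58.3, 67.8, 61.2 and 69.8 CPM with LPS (0.42 ± 0.05, adjusted p = 7.95e-06). C6, of the membrane attack complex, was lower (-0.96 ± 0.15).

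**Figure D3:**
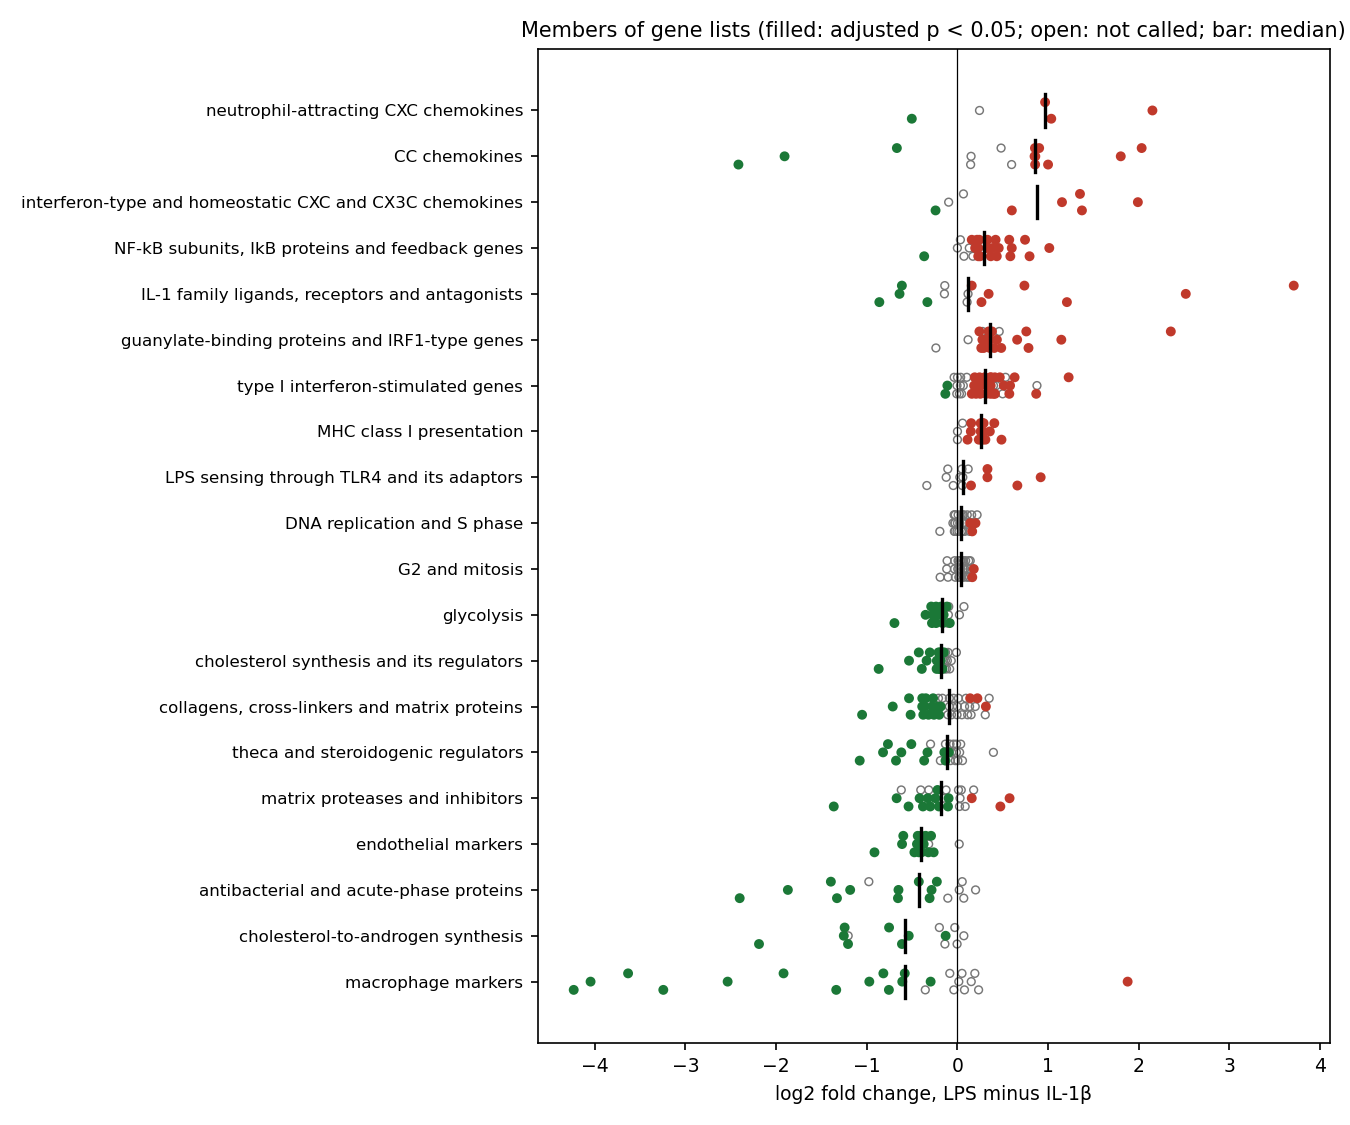
Log2 fold change between LPS and IL-1β (horizontal axis) of every tested member of 20 gene lists (rows); filled points were called at an adjusted p of 0.05, open points were not, and black bars mark the median. Medians run from 0.97 for the list of neutrophil-attracting chemokines, which also holds Pf4, to -0.58 for macrophage markers, and cell cycle lists lie at 0.04.

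Genes listed under the steps from cholesterol to androgen were lower with LPS in 8 of 14 tested and higher in 0 (median -0.57). The median against control was 0.52 with LPS and 1.27 with IL-1β. Cyp17a1, whose enzyme commits progestins to androgens, had the largest difference. It stood at 17.5, 17.1, 15.6 and 11.8 CPM with IL-1β and at 5.23, 3.43, 1.99 and 2.90 CPM with LPS, against 0.395 to 0.634 CPM in control. All 4 LPS libraries lay above control and below every IL-1β library, 4.56-fold lower than with IL-1β (-2.19 ± 0.21, adjusted p = 3.27e-05). Cyp11a1, whose enzyme takes the first step from cholesterol to pregnenolone, stood at 85.4, 73.7, 72.2 and 69.2 CPM with IL-1β and at 38.4, 30.0, 28.02 and 30.6 CPM with LPS (-1.24 ± 0.09, adjusted p = 1.73e-06).

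Rows of the 3-beta-hydroxysteroid dehydrogenase family, of which some members turn pregnenolone to progesterone, shared this order. Hsd3b6 stood at 269, 237, 219 and 219 CPM with IL-1β and at 110, 104, 93.6 and 88.5 CPM with LPS (-1.25 ± 0.09, adjusted p = 8.06e-06), and the unnamed locus LOC100911154 had nearly identical counts. Hsd3b (-1.24 ± 0.09) and Hsd3b5 (-1.21 ± 0.07) were also lower. These copies are alike in sequence, so the level of any single one is uncertain. The electron carriers of the mitochondrial enzymes, Fdxr (-0.75 ± 0.06) and Fdx1 (-0.54 ± 0.06), and Scarb1, the receptor for cholesterol from high-density lipoprotein (-0.61 ± 0.05), were lower without overlap.

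Star differed little. It stood at 425, 390.0, 398 and 406 CPM with IL-1β, at 348, 318, 384 and 361 CPM with LPS and at 127 to 156 CPM in control. The groups did not overlap, but the gene was not called (-0.20 ± 0.07, adjusted p = 0.0686), and it was called in 6 alternatives, among them without Control replicate 1, without Control replicate 4 and without LPS replicate 3.

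**Figure D4:**
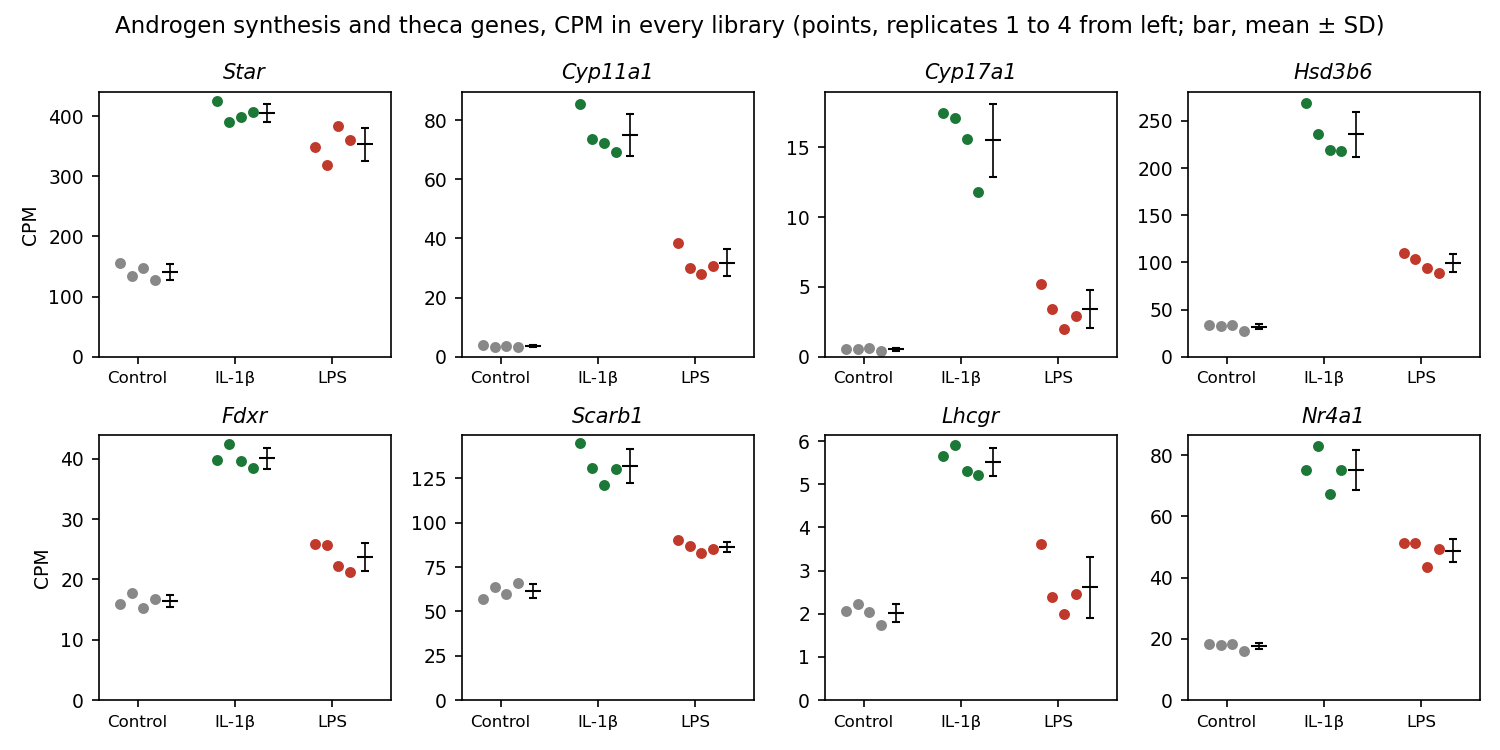
CPM in each control, IL-1β and LPS library (points, replicates 1 to 4 from left; bars, mean ± SD, n = 4) for 8 genes of androgen synthesis and theca regulation, each panel on its own axis from 0. For Cyp11a1, Cyp17a1 and Hsd3b6 the LPS libraries lie between control and IL-1β, for Star both stimulated groups lie close together, and for Lhcgr LPS libraries lie near control.

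Regulators of the theca were lower in 11 of 26 and higher in 0 (median -0.11). Lhcgr, the luteinizing hormone receptor gene, stood at 5.64, 5.92, 5.30 and 5.22 CPM with IL-1β, at 3.62, 2.38, 1.99 and 2.45 CPM with LPS and at 1.75 to 2.23 CPM in control. LPS libraries were below all IL-1β libraries and near control (-1.08 ± 0.13, adjusted p = 9.56e-07). The orphan receptor genes Nr0b1 (-0.82 ± 0.10) and Nr4a1 (-0.62 ± 0.06) were lower too, as was Ptch1, the hedgehog receptor gene (-0.33 ± 0.05). Nr5a1 was lower by little (-0.13 ± 0.04, adjusted p = 0.0105), a call lost without LPS replicates 3 and 4, and Insl3 was not called (-0.19 ± 0.30, adjusted p = 0.722).

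Cholesterol synthesis genes were lower with LPS in 17 of 27 and higher in 0, with a smaller median (-0.18). Dhcr7, which makes the last step to cholesterol, stood at 89.4, 80.8, 85.4 and 85.5 CPM with IL-1β and at 65.5, 65.9, 66.9 and 61.7 CPM with LPS, against 48.4 to 50.6 CPM in control (-0.39 ± 0.04, adjusted p = 4.85e-09). Tm7sf2 (-0.53 ± 0.07), Ebp (-0.43 ± 0.06) and Hmgcs1 (-0.23 ± 0.03) were members with the same order. In uptake, storage and efflux of cholesterol 1 of 18 was higher and 5 lower, among them Cd36, Scarb1 and Apoe (-0.45 ± 0.09).

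Enzymes that convert or clear steroids did not share that direction: 6 of 17 were higher, 2 lower and 9 not called (median -0.01). Cyp7b1, an oxysterol and steroid hydroxylase, stood at 35.7, 39.1, 35.4 and 41.3 CPM with IL-1β and at 51.2, 56.8, 48.9 and 52.2 CPM with LPS (0.47 ± 0.06, adjusted p = 6.73e-06). Cyp1b1, which hydroxylates oestrogens, was 0.45 ± 0.05 higher and Akr1c14, a 3-alpha-hydroxysteroid dehydrogenase, 0.23 ± 0.04 higher. All 3 were above control in both groups and in every LPS library above every IL-1β library.

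Genes of prostaglandin and lipoxygenase metabolism split, with 6 of 22 higher and 8 lower (median 0.01). The lower count was 5 with DESeq2, with a stricter filter and without LPS replicates 3 and 4, and the higher count was 2 without those replicates. Ptgs2, the inducible cyclooxygenase, stood at 10.2, 7.40, 9.29 and 9.02 CPM with IL-1β and at 15.1, 11.97, 18.6 and 12.8 CPM with LPS (0.69 ± 0.15, adjusted p = 0.00512). On the lower side were Alox15, the prostaglandin D synthase gene Ptgds (-1.997 ± 0.37, 78 and 21 counts over the IL-1β and LPS libraries), the receptor gene Ptger3 (-0.87 ± 0.17) and the carrier gene Slco2a1 (-0.39).

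Genes of blood vessels were lower with LPS. Of 17 endothelial markers 15 were lower and 0 higher (median -0.40), against medians over control of 0.72 with LPS and 1.09 with IL-1β. Vwf, the gene of von Willebrand factor, stood at 23.2, 22.2, 20.7 and 19.3 CPM with IL-1β and at 13.2, 11.97, 9.63 and 10.5 CPM with LPS, against 4.37 to 5.49 CPM in control (-0.91 ± 0.08, adjusted p = 1.11e-08). Flt1, a VEGF receptor gene, was lower (-0.60 ± 0.11), and so was Tek, the angiopoietin receptor gene (-0.37 ± 0.08). In VEGF and angiopoietin signalling, which shares Flt1, Kdr, Tek and Tie1 with that list, 8 of 15 were lower and 1, Nrp2, higher (0.30 ± 0.03). The summed endothelial level was lowest in LPS replicates 3 (474 CPM) and 4 (509 CPM), and without these replicates 9 markers were called lower and 5 of the VEGF list.

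Vcam1, an adhesion molecule that cytokines induce on endothelium and stroma, went the other way. It stood at 23.5, 22.6, 23.0 and 22.7 CPM with IL-1β and at 54.9, 56.1, 52.7 and 55.8 CPM with LPS, against 8.17 to 12.6 CPM in control (1.26 ± 0.07, adjusted p = 1.87e-10). Of 12 leukocyte adhesion genes 4 were higher, namely Icam1, Vcam1, Itgal and Cd44 (0.63 ± 0.07), and 3 lower.

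**Figure D5:**
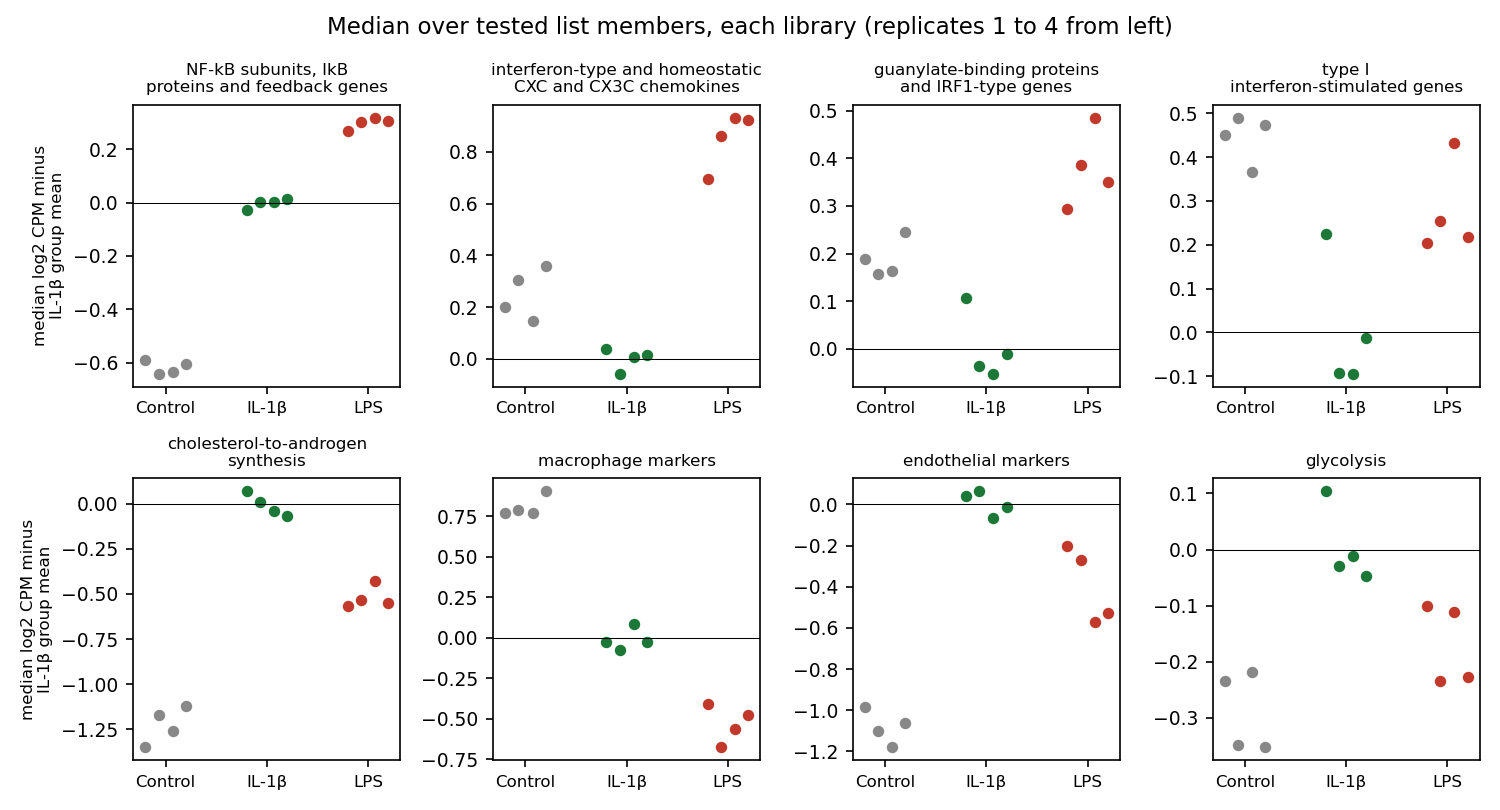
Median over the tested members of 8 gene lists of the log2 CPM minus the IL-1β group mean, in each control, IL-1β and LPS library (points, replicates 1 to 4 from left). LPS and IL-1β libraries do not overlap for 7 of the lists; for type I interferon-stimulated genes IL-1β replicate 1 (0.22) lies among the LPS libraries, and endothelial markers are lowest in LPS replicates 3 and 4 among the stimulated libraries.

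Collagens and other matrix proteins were lower in 16 of 39 and higher in 3 (median -0.09), though 5 to 8 were higher in 6 alternatives. Col5a3 was at 45.4, 46.9, 41.4 and 49.0 CPM with IL-1β and at 26.5, 20.8, 18.7 and 22.1 CPM with LPS (-1.05 ± 0.08, adjusted p = 1.06e-07), and Thbs2, a matricellular protein gene, was lower too (-0.39 ± 0.05). Fn1, the rat fibronectin gene, was among the higher genes, at 5675, 5522, 5911 and 6167 CPM with IL-1β and 6906, 6764, 7626 and 7646 CPM with LPS (0.31 ± 0.04, adjusted p = 2.5e-05). Matrix proteases and inhibitors were lower in 12 of 26 and higher in 3 (median -0.18). Timp1, the inhibitor, was lower (-0.38 ± 0.03), while Mmp9, a gelatinase, was higher (0.58 ± 0.09).

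Cell cycle genes, of interest because the title of the study names proliferation, were close in both groups. In DNA replication 3 of 30 were higher and 0 lower, and in G2 and mitosis 2 of 32 higher and 0 lower, both with a median of 0.04. Without LPS replicates 1 and 2 the replication count was 6. The G2 and mitosis counts moved from 0 to 9 higher and 0 to 1 lower over the alternatives. Mki67, the proliferation marker, was at 212 to 231 CPM with IL-1β and 212 to 248 CPM with LPS (0.02 ± 0.04, adjusted p = 0.850). Ccnb1 (0.07 ± 0.05, adjusted p = 0.356), Pcna (0.11 ± 0.05, 0.120) and Ccnd1 (-0.19 ± 0.07, 0.0693) were not called. Of 22 G1 genes 6 were higher and 2 lower, with Cdkn1a, a brake on cyclin-dependent kinases, at 0.23 ± 0.04.

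Glycolysis genes were lower with LPS in 13 of 18 and higher in 0, by small amounts (median -0.17), and in 8 without LPS replicate 4. Pkm, which makes pyruvate, stood at 857, 780.1, 794 and 781 CPM with IL-1β and at 698, 647, 730.1 and 696 CPM with LPS (-0.21 ± 0.04, adjusted p = 0.00044). Pgk1 (-0.29 ± 0.05) and Gpi (-0.24 ± 0.03) had the same order.

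Smooth muscle genes were higher in 5 of 16 and lower in 4 (median 0.13), and 3 were higher without IL-1β replicate 1 or 3 or without LPS replicate 2. Their lower count was 7 with no low-count filter, with the replicate block and without LPS replicates 1 and 2. Tagln, a contractile gene, stood at 701 to 773 CPM with IL-1β and 880 to 1001 CPM with LPS, both far below the 2286 to 2439 CPM of control (0.36 ± 0.04), and the lower members included Des (-0.43 ± 0.05). Granulosa genes were lower in 7 of 15 and higher in 0 (median -0.24), or lower in 3 without LPS replicates 3 and 4 and with a median of -0.38 without LPS replicate 2, with Fshr, the receptor gene for follicle-stimulating hormone, at -0.70 ± 0.14. Surface epithelium genes were higher in 1 and lower in 2 of 14. Of the lymphocyte genes 5 were tested and 1, Cd8a, was called lower, a call lost in 7 alternatives including without IL-1β replicates 2 or 3 and without LPS replicates 1 or 3. The part of these cell types in the other differences was not tested.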

How the data were processed

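RNA from 12 cultures (4 control, 4 IL-1β, 4 LPS) was sequenced on a HiSeq4000 from Illumina TruSeq Stranded mRNA libraries after MagMAX-96 isolation, per the labels' protocols. The deposited values are raw counts per gene for the 12 libraries, with no normalization by the authors. The submitters' processing notes name TopHat2 2.1.1, SAMtools, DESeq2 and the build Rnor_6.0. The counting program, the annotation and the strand setting are not given in the sources used here.

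From these counts, genes were filtered with filterByExpr of edgeR 4.0.16 (R 4.3.3), libraries were scaled by TMM, and a robust quasi-likelihood fit was made on all 12 libraries by group, so that the control libraries share in the estimate of the spread. The contrast was LPS minus IL-1β, with Benjamini-Hochberg adjustment over the 17330 genes tested and a threshold of 0.05 with no minimum fold. The standard error is the size of the log2 fold change over the root of F. Of the 30045 rows 1425 had no count in any library. The number of other sample columns is 0. On simulated counts with 50 genes changed at each size, the fit recovered 70% of the genes changed 1.25-fold, 90% of those changed 1.5-fold and 94% of those changed 2-fold, and at 4-fold 100%, beside 13 false calls. Far fewer genes were changed there than were called in the data, so these rates need not carry over to this comparison.

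Named genes were 20 called genes at either end of the fold changes and a panel on both ligands and the outputs the title names. The 4 members with the smallest p of each list were added. Genes at either end had at least 2 CPM and no overlap of the groups, and provisional symbols such as LOC numbers were left out. Members and lists were chosen with earlier results of these data known. No replicate pair agreed within sampling noise, with chi-square per degree of freedom from 1.82 to 5.21. Alternatives were DESeq2 1.42.0, limma-voom (limma 3.58.1), other scalings and filters, a replicate block, the 8 libraries alone and each library left out. Promoters are from RefSeq, build GRCr8, and serve only for their sequence.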

Additional observations from a re-analysis of the deposited data

Results flagged for a closer look

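In 15 of 404 sets of 4 libraries (3.71%) the highest or lowest library stood far from the others by Dixon's criterion, where chance gives about 1 in 20. LPS replicate 3 was the high library for Ifit3 (59.3 CPM, next 33.8), Mki67 (248 CPM, next 217), Mmp12 (4.21 CPM, next 3.22) and Tlr4 (12.7 CPM, next 10.9). LPS replicate 1 was high for Gpi (235 CPM, next 222) and Mmp9 (24.3 CPM, next 20.5) and low for the summed MHC class II genes (9.80 CPM, next 12.1). LPS replicate 2 was low for Cxcl12 (584 CPM, next 624).

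Among the IL-1β libraries, replicate 1 was high for Ifi44l (26.8 CPM, next 22.3), Lcn2 (617 CPM, next 575) and Tlr3 (57.4 CPM, next 56.8). IL-1β replicate 3 was high for Icam1 (117 CPM, next 112), Insl3 (0.732 CPM, next 0.428) and Tlr4 (9.33 CPM, next 8.83). IL-1β replicate 4 was low for Sox18 (19.3 CPM, next 21.9).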

How the results depend on the processing

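Under the 24 alternatives no gene called in the main analysis was called in the opposite direction. Without LPS replicates 3 and 4, a choice made after seeing the data, 960 genes were called higher and 1019 lower. Without LPS replicates 1 and 2, likewise added, 2162 and 2092 were called. Replicates 3 and 4 were already seen to lie further from the IL-1β libraries, so the order of these counts is no independent result. Its cause was not tested. Leaving out 1 library gave 1472 to 2115 genes higher and 1427 to 1954 lower, both lowest without LPS replicate 3 and highest without LPS replicate 1. The other alternatives gave 1681 to 2176 higher and 1605 to 2080 lower. Of 193 named genes 168 kept their side of the threshold throughout, and of 4606 values 38 lost a call, 39 gained one and 0 reversed.

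The replicate number as a block gave 2176 genes higher and 2080 lower. Deviations of same-numbered LPS and IL-1β libraries correlated at 0.01, 0.09, 0.05 and 0.12, all positive, and those of unlike numbers at -0.07 to 0.06. Same-numbered LPS and control libraries correlated at 0.01, 0.05, 0.05 and 0.02, and IL-1β and control libraries at -0.03, 0.01, 0.01 and 0.04. Not every LPS library correlated best with its own number, and the labels give the numbers no meaning, so the main fit left them out. Whether same-numbered libraries shared a batch was not tested. With the block 15 type I interferon-stimulated genes were called higher in place of 25, and Star was called lower (-0.20). Small list counts also moved. Without LPS replicates 3 and 4, 5 prostaglandin genes were lower, 3 lipid droplet genes higher and 5 cell death genes higher, the last also without LPS replicate 3. The replicate block called 8 genes of endoplasmic reticulum stress higher in place of 5. The lone gene of cholesterol uptake, storage and efflux called higher was lost in 7 alternatives, among them without IL-1β replicate 3 and without LPS replicates 2, 3 or 4. One of the 2 steroid conversion genes called lower was lost without IL-1β replicates 2 or 3 and without LPS replicates 3 or 4. Counts of genes under 1 CPM, such as Insl3 and Ifit1, were too low to show small differences.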

Other observations

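Growth factor genes of the TGF-β and IGF families were higher with LPS in 11 of 32 and lower in 5 (median 0.05), or higher in 7 without IL-1β replicate 3 and lower in 3 without IL-1β replicate 2 or without LPS replicate 3. Bmp6, a bone morphogenetic protein of the ovary, stood at 19.3, 22.2, 23.9 and 24.2 CPM with IL-1β and at 30.4, 30.1, 33.4 and 34.6 CPM with LPS (0.52 ± 0.06, adjusted p = 9.32e-07). Igfbp5, which binds IGF, was 0.34 ± 0.04 higher and Igf1 0.15 ± 0.03 higher, both below control in all 8 libraries. Igf1r, the IGF receptor gene, was lower (-0.14 ± 0.03). Lipid droplet and fatty acid genes split, with 5 of 20 higher and 7 lower (median 0.00). Acsl1, which activates fatty acids, was higher (0.41 ± 0.05), while Mgll (-0.67 ± 0.08), which cleaves monoacylglycerol, and Lpl (-0.38 ± 0.06), which releases fatty acids from lipoproteins, were lower.

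Lists of stress and death genes had small medians. Of 23 genes of endoplasmic reticulum stress 5 were higher and 1 lower (median 0.03), and the lower call was lost with limma-voom, without any single IL-1β library, without Control replicate 2 or 3 and without LPS replicate 1, 2 or 3. Ddit3, a factor of the stress response, stood at 13.95 to 18.01 CPM with IL-1β and 19.7 to 25.1 CPM with LPS, both below the 31.9 to 37.9 CPM of control (0.53 ± 0.09, adjusted p = 0.000274). Of 27 antioxidant and oxidase genes 6 were higher, led by Nox1, and 3 lower, with Gpx3, a secreted peroxidase, at -0.57 ± 0.06. Of 23 cell death genes 8 were higher (34.8%, against 11.3% over all genes tested) and 0 lower (median 0.12). Fas, a death receptor gene, stood at 19.2, 21.3, 21.4 and 23.5 CPM with IL-1β and at 32, 32.1, 35.1 and 32.9 CPM with LPS, against 13.3 to 14.7 CPM in control (0.63 ± 0.06, adjusted p = 2.18e-09).

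Some of the named genes with large differences belong to none of the fixed lists. Plet1, a surface protein gene, stood at 23.0, 27.0, 23.2 and 27.4 CPM with IL-1β and at 45.3, 51.8, 53.0 and 54.4 CPM with LPS, against 5.71 to 6.60 CPM in control (1.03 ± 0.06, adjusted p = 3.05e-11). The calcium-binding protein genes Calb2 (-1.52 ± 0.17) and Calml3 (-1.26 ± 0.27) and the hydroxyacid oxidase gene Hao2 (-1.21 ± 0.16) were lower with LPS.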
